A study of Mus musculus with 8 samples.

Results

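The genes described here are those that encode the machinery of oxidative phosphorylation in mouse embryos at stage E9.25. They were taken by symbol: protein-coding genes whose names start with Ndufa, Ndufb, Ndufc, Ndufs, Ndufv, Sdha to Sdhd, Uqcr, Cox4 to Cox8 or Atp5, together with the 13 protein-coding genes of the mitochondrial genome. Of the 55421 genes in the table, 107 had such a name. A mean of at least 1 TPM over the 8 libraries, the level required of a member, was reached by 97 of them, 89 nuclear and 8 mitochondrial. TPM, a unit of transcript abundance, takes gene length into account and sums to 1000000 in each library, so levels can be set side by side between genes.

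RNA was sequenced from embryos at the 9 to 11 somite stage that were wild type or Gcnf-/-, homozygous for a mutant allele of Gcnf (Nr6a1), an orphan nuclear receptor gene. Each embryo was divided into an anterior piece, which ends with pharyngeal arch 1, and a posterior piece, which starts with pharyngeal arch 2. The 4 groups held 2 libraries each, numbered 159 and 163 for either region of the mutant and 153 and 156 for either region of the wild type. Pairs of values below are in that order. Pieces are mixtures of tissues, and in such bulk samples fewer cells of a type and less RNA per cell cannot be told apart.

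The respiratory chain sits in the inner mitochondrial membrane. Complex I takes electrons from NADH and complex II takes them from succinate. Complex III passes them to cytochrome c, and complex IV passes them to oxygen. Complex V, the ATP synthase, uses the proton gradient built by complexes I, III and IV. Most subunits are encoded in the nucleus, while a few core subunits of complexes I, III, IV and V are encoded by mitochondrial DNA, so an assembled complex needs products of both genomes. Several complex IV subunits exist in alternative isoforms that are used in particular tissues or at low oxygen.

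Depth, recovered from the TPM values, was 27064113 to 52957993 reads in genes. The labels' regions could be checked with marker genes: the sum of 5 anterior neural genes was 253 to 297 TPM in the anterior libraries and 8.86 to 12.0 TPM in the posterior ones. The genotype labels could not be checked in the same way. Nr6a1 stood at 240 and 202 TPM in the mutant anterior pieces and at 194 and 205 TPM in the wild-type ones, and at 158 and 116 TPM against 157 and 165 TPM in the posterior pieces. Which part of the gene the allele removes is not known from the labels, so these levels check nothing. Xist was present in both libraries numbered 159 (25.3 and 30.9 TPM), and Ddx3y of the Y chromosome in the other 6 (26.2 to 39.4 TPM), so sex was unequal between the genotypes. The summed level of 10 of 10 primitive erythroid markers was 22117 to 43971 TPM in the mutant libraries and 4235 to 9913 TPM in the wild-type ones. By Xist and Ddx3y, the mutant libraries 159 and 163 came from different embryos. For the wild type the labels do not settle this, and there the spread behind the p-values may be technical.

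By role, the 97 members were 36 nuclear subunits of complex I, 4 of complex II, 8 of complex III, 17 of complex IV and 15 of complex V, with 6 mitochondrial genes of complex I, 1 of complex III and 1 of complex IV. The symbols also took in 8 complex I assembly factors (Ndufaf1 to Ndufaf8), which help build the complex and are not part of it, and Atp5s, a coupling factor. Ndufa4 and Ndufa4l2 carry a complex I name. They are counted here with complex IV, where the Ndufa4 protein is known to belong. All 97 members passed the filter of the test, which asked for 1 TPM or more in 2 or more libraries.

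The 10 named genes below the limit were of 2 kinds. Among the nuclear ones were the tissue-restricted isoforms Cox7b2 (mean 0.0658 TPM), Cox8b (0.0811 TPM) and Cox8c (listed at 0), together with Atp5l (0.112 TPM) and a second Atp5o identifier (listed at 0). Of the runs of 50 bases in their transcripts, 9.99% (Atp5l) and 89.8% (second Atp5o identifier) also occur in other genes. Their listed levels are therefore uncertain. The lowest nuclear members above the limit were the c-ring gene Atp5g2 (2.41 TPM) and Cox6a2 (2.92 TPM). The other 5 were mitochondrial: mt-Co2 and mt-Co3, core subunits of complex IV, mt-Atp6 and mt-Atp8, membrane subunits of complex V, and mt-Nd4l of complex I were listed at 0 in every library.

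Of these 5 genes, 4 share nearly all of their sequence with nuclear copies. Every run of 50 bases of each gene was looked up in the transcripts of all other genes of the GENCODE M21 annotation. For mt-Co2, mt-Co3, mt-Atp6 and mt-Nd4l, between 98.8% and 100% of the runs were also found elsewhere, with the leading copy among nuclear pseudogenes on chromosome 1. The stretch that follows is shown for that identity. It is the start of mt-Co3 (mm10, chrM:8607-9390, plus strand), and the same 60 bases open the pseudogene Gm28437 (chr1:24613189-24613971, minus strand), which equals mt-Co3 at 783 of 783 aligned bases.
mt-Co3: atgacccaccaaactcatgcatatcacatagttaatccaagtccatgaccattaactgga
The pseudogene itself was at no more than 0.397 TPM in any library, as was Gm10925, which equals mt-Atp6 at 678 of 678 aligned bases. mt-Nd3 shared 98.0% of its runs and was listed at 2.45 to 5.92 TPM, on 8 to 21 reads a library. mt-Nd4 shared 62.2% (mean 895 TPM) and mt-Co1 51.1% (3738 TPM), while mt-Nd1 (5528 TPM), mt-Cytb (4093 TPM) and mt-Nd6 (1810 TPM) shared none. The exception was mt-Atp8, listed at 0 with no shared run. It overlaps mt-Atp6 on the mitochondrial genome. Only annotated transcripts were searched, so a nuclear copy of mt-Atp8 outside them was not looked for. How reads with several placements were counted is not stated in the labels or notes, so values of mt-Nd3, mt-Nd4 and mt-Co1 are uncertain, and with a kit that does not mark strand mt-Nd6 cannot be told apart from RNA of the opposite strand.

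**Figure D1:**
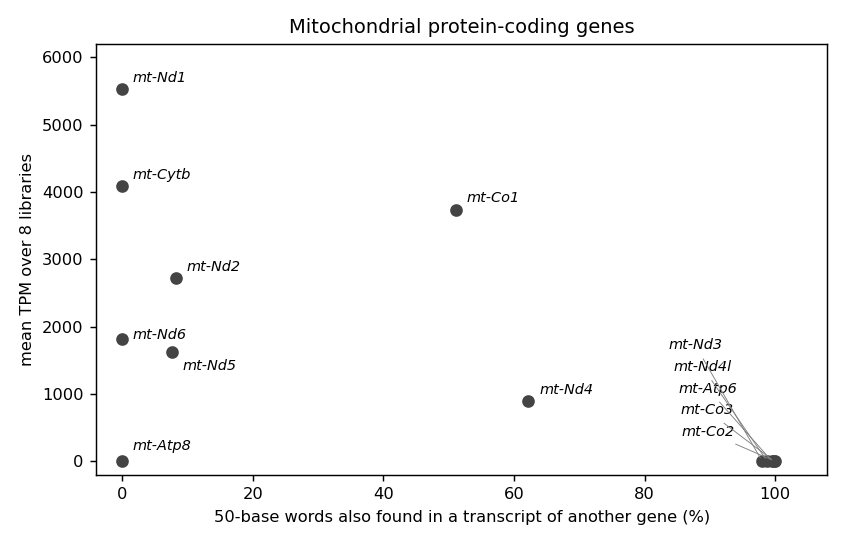
Mean TPM over the 8 libraries of each of the 13 mitochondrial protein-coding genes (vertical axis) against the percentage of its 50-base runs that also occur in a transcript of another gene (horizontal axis). The 5 genes at 98.0% or more lie at or near 0, and mt-Atp8 lies at 0 without shared runs.

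The nuclear members together held 2.03% to 2.57% of all TPM of a library, a narrow range. Their sum was 20922 and 21903 TPM in the mutant anterior pieces, 21586 and 22847 TPM in the wild-type anterior pieces, 21984 and 25674 TPM in the mutant posterior pieces, and 21365 and 20278 TPM in the wild-type posterior pieces. The highest value was that of mutant posterior library 163. In the posterior pieces both mutant values were above both wild-type values, and in the anterior pieces the genotypes overlapped. Of the nuclear sum, complex V held 28.2% to 29.9%, complex I 27.0% to 28.2%, complex IV 24.1% to 26.2%, complex III 10.5% to 11.6% and complex II 5.39% to 5.98%. Shares of 3 sets did not overlap between the genotypes. Complex III held 10.5% to 10.7% in the 4 mutant libraries and 11.2% to 11.6% in the 4 wild-type ones, and the complex I assembly factors 1.33% to 1.48% and 1.52% to 1.73%. Complex IV went the other way by a narrow gap, with 24.6% to 26.2% in the mutant and 24.1% to 24.6% in the wild type. Its sum includes Ndufa4l2, Cox7a2l, Cox4i2 and Cox6b2, which were called higher in the mutant in both regions, as given below. Their part in this gap was not tested. Shares of the same sum depend on each other, so the 3 gaps are not separate results, and none was tested.

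The 8 mitochondrial genes varied more than the nuclear ones between the libraries of 3 groups, and less in the wild-type posterior group. They summed to 14712 and 10362 TPM in the mutant anterior pieces, 33718 and 17521 TPM in the wild-type anterior pieces, 25620 and 11952 TPM in the mutant posterior pieces, and 24897 and 24525 TPM in the wild-type posterior pieces. Both mutant anterior libraries were below every wild-type library. Of the mutant posterior pair, library 163 was low and library 159 was among the wild-type values. The ratio of the mitochondrial to the nuclear sum was 0.703 and 0.473 in the mutant anterior pieces, 1.56 and 0.767 in the wild-type anterior ones, 1.17 and 0.466 in the mutant posterior ones, and 1.17 and 1.21 in the wild-type posterior ones. These sums and ratios lack the 5 mitochondrial genes listed at 0 and include the uncertain values of mt-Nd3, mt-Nd4 and mt-Co1. They therefore do not give the full balance of transcripts of the 2 genomes.

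**Figure D2:**
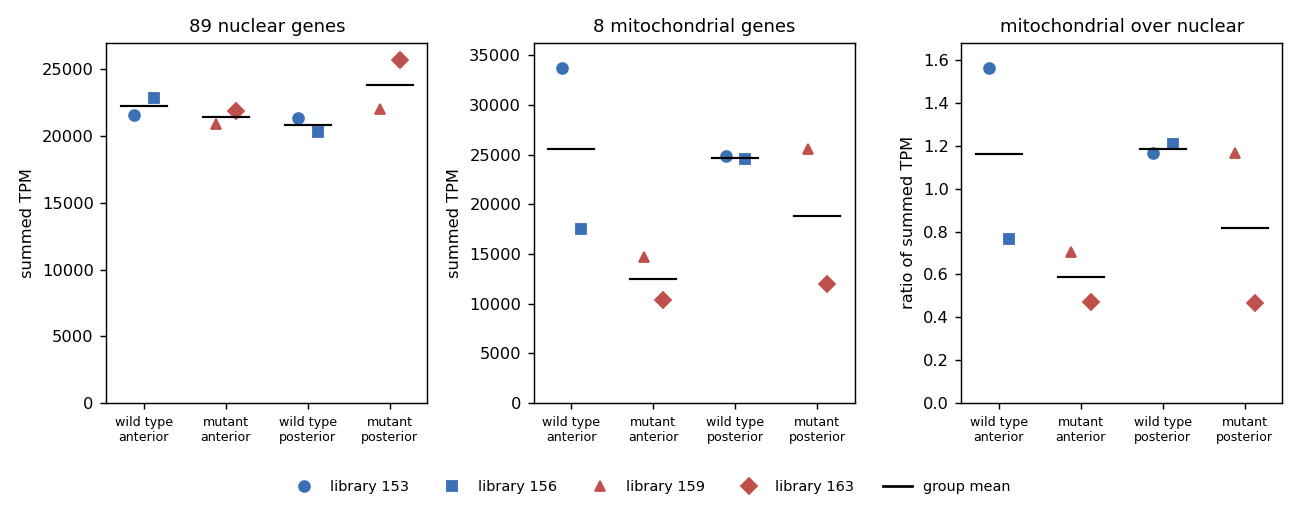
Summed TPM of the 89 nuclear members, summed TPM of the 8 mitochondrial members, and the ratio of these sums in each library; each symbol is 1 library and the bar is the mean of the 2. The nuclear sums lie between 20278 and 25674 TPM, while the mitochondrial sums run from 10362 to 33718 TPM.

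The comparison of mutant with wild-type anterior pieces asked which genes depended on genotype in front of and at pharyngeal arch 1. Of the 97 members, 13 passed the test (limma, Benjamini-Hochberg adjusted p under 0.05 over all 16699 genes tested), which is 13.4% beside 23.6% of all genes. The split was 5 higher and 8 lower in the mutant, where all genes gave 13.3% higher and 10.2% lower; under quantile normalization 11 members were higher and 6 lower. On the scale of log2(TPM + 1), the median difference was -0.09 over the nuclear members (0.02 under quantile normalization) and -0.93 over the mitochondrial ones, beside 0.02 over all genes. Between groups of 2 libraries a lack of overlap, given below for single genes, is weak evidence. In this comparison it was also found for Ndufa1 (limma, adjusted p = 0.68) and Sdhd (adjusted p = 0.73), far from the threshold. Here and below, libraries were left out 1 at a time. Of the anterior libraries, the count of called members was 5 when wild-type 153 or mutant 163 was dropped and 7 when wild-type 156 was dropped. It was 20 when posterior mutant 159 or 163 was dropped.

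Of the members, 11 passed in the posterior pieces, 10 higher and 1 lower in the mutant. This is 11.3%, beside 11.5% of all genes, of which 8.56% were higher and 2.93% lower. The median difference was 0.16 over the nuclear members and -0.38 over the mitochondrial ones, beside 0.05 over all genes. The nuclear median was 0.07 without mutant library 163 and 0.25 without mutant library 159. The count was 3 without wild-type posterior library 153 or 156, and 7 without wild-type anterior library 153 or 156 or mutant posterior library 163. Calls shared by the anterior and posterior comparisons were those of Ndufa4l2, Cox6b2, Cox4i2, Cox7a2l and Ndufa6, all higher in the mutant, and of Ndufaf4, which was lower.

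**Figure D3:**
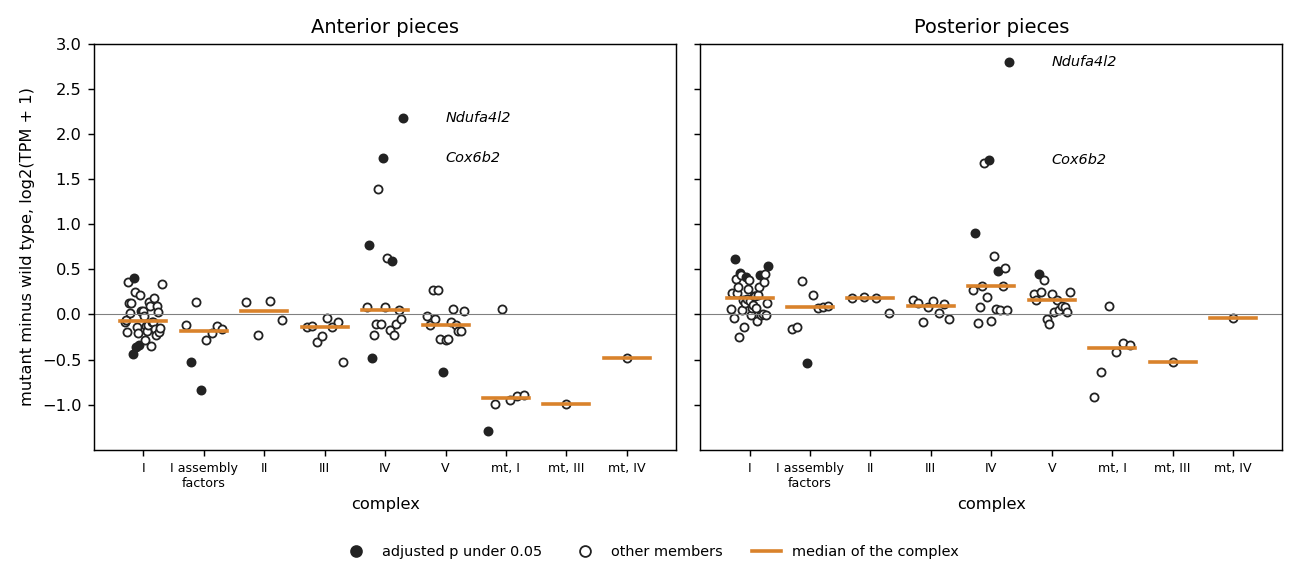
Difference between mutant and wild type in log2(TPM + 1) for each member, by complex, in anterior (left) and posterior (right) pieces; filled points passed the adjusted threshold, open points did not, and bars are medians. Ndufa4l2 (2.18 and 2.80) and Cox6b2 (1.73 and 1.71) stand highest in both panels, and mitochondrial (mt) genes hold the lowest values.

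The largest rises among called members, in both genotype comparisons, were those of Ndufa4l2, Cox6b2 and Cox4i2. They are alternative isoforms or paralogues of complex IV subunits. Of 6 such genes measured (Ndufa4l2, Cox4i2, Cox6a2, Cox6b2, Cox7a1 and Cox7a2l), 4 rose in the mutant anterior pieces and the same 4 in the posterior ones. This is 66.7% in each, beside 13.3% of all genes higher in the anterior and 8.56% in the posterior comparison. Their median differences were 1.08 and 1.29. These depended on Cox6a2 (1.40 and 1.68, not called). Cox6a2 reached the level of a member mainly through mutant posterior library 159, with 173 reads there and 0 to 21 in any other library. With Cox6a2 set aside, the middle value was that of Cox4i2, 0.77 and 0.90. Of the 11 other nuclear complex IV subunits, none rose in either region and Cox5a fell in the anterior one, with medians of -0.11 and 0.08. Of these 11, 2 in the anterior and 3 in the posterior pieces had an unadjusted limma p under 0.05. Beside the shares of all genes, a count of 0 among 11 does not by itself set these subunits apart.

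Ndufa4l2, a paralogue of the complex IV subunit Ndufa4 known as a gene induced by hypoxia, was at 88.7 and 154 TPM in the mutant anterior pieces and at 27.2 and 23.0 TPM in the wild-type ones. It was at 111 and 107 TPM in the mutant posterior pieces and at 13.5 and 16.3 TPM in the wild-type ones. Every mutant library was above every wild-type library. The differences were 2.18 ± 0.22 (SE) in the anterior pieces (limma, Benjamini-Hochberg adjusted p = 0.00045) and 2.80 ± 0.22 in the posterior pieces (adjusted p = 0.00033). Its share of the summed TPM of Ndufa4 and Ndufa4l2 was 14.6% to 23.8% in the mutant libraries and 2.39% to 4.98% in the wild-type ones, while Ndufa4 itself differed by -0.05 ± 0.13 and 0.05 ± 0.13.

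Cox6b2, known as the testis form of the subunit Cox6b1, was the second. It was at 39.5 and 43.2 TPM against 9.72 and 14.1 TPM in the anterior pieces, and at 25.2 and 25.6 TPM against 7.89 and 6.29 TPM in the posterior pieces. The groups did not overlap in either region. The differences were 1.73 ± 0.17 (limma, adjusted p = 0.00040) and 1.71 ± 0.17 (adjusted p = 0.00086). Cox6b1 remained the main form, at 832 to 1043 TPM, and Cox6b2 made up 2.40% to 4.58% of the pair in the mutant and 0.750% to 1.44% in the wild type.

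Cox4i2 encodes the alternative form of Cox4i1, described as an isoform for low oxygen. It was at 45.2 and 55.0 TPM against 31.8 and 26.1 TPM in the anterior pieces, and at 90.9 and 92.2 TPM against 53.7 and 44.0 TPM in the posterior ones. Here both genotype and region separated the libraries. The genotype differences were 0.77 ± 0.14 (limma, adjusted p = 0.0064) and 0.90 ± 0.14 (adjusted p = 0.0063). The anterior call was lost without mutant library 163 or wild-type library 156 (adjusted p up to 0.053), and the posterior call without wild-type library 156 (adjusted p = 0.058).

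Cox7a2l, which takes part in joining complexes III and IV into supercomplexes, was at 217 and 239 TPM against 149 and 152 TPM in the anterior pieces, and at 198 and 218 TPM against 151 and 145 TPM in the posterior ones. All 4 mutant values exceeded all 4 wild-type values. The differences were 0.59 ± 0.09 (limma, adjusted p = 0.0032) and 0.49 ± 0.09 (adjusted p = 0.014). The posterior call was lost without either wild-type posterior library (adjusted p up to 0.077).

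Neither muscle isoform passed the test. Cox7a1, the heart and skeletal muscle form of Cox7a2, was at 8.46 and 11.3 TPM against 6.77 and 5.27 TPM in the anterior pieces, and at 14.2 and 9.41 TPM against 6.78 and 7.31 TPM in the posterior ones, differences of 0.63 ± 0.21 (limma, adjusted p = 0.061) and 0.64 ± 0.21 (adjusted p = 0.083). Cox6a2, the striated muscle form of Cox6a1, was listed at 0 in both wild-type anterior libraries and wild-type posterior library 153, at 2.20 TPM in wild-type posterior library 156, and at 2.22, 1.15, 16.9 and 0.842 TPM in mutant anterior 159 and 163 and posterior 159 and 163. The summed level of 10 of 10 heart muscle markers was 454 and 147 TPM in the mutant anterior, 177 and 45.6 TPM in the wild-type anterior, 3666 and 485 TPM in the mutant posterior and 537 and 1618 TPM in the wild-type posterior libraries. The library with the highest Cox6a2 and Cox7a1 thus also had the highest heart marker sum; the part of heart tissue in their values was not tested.

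**Figure D4:**
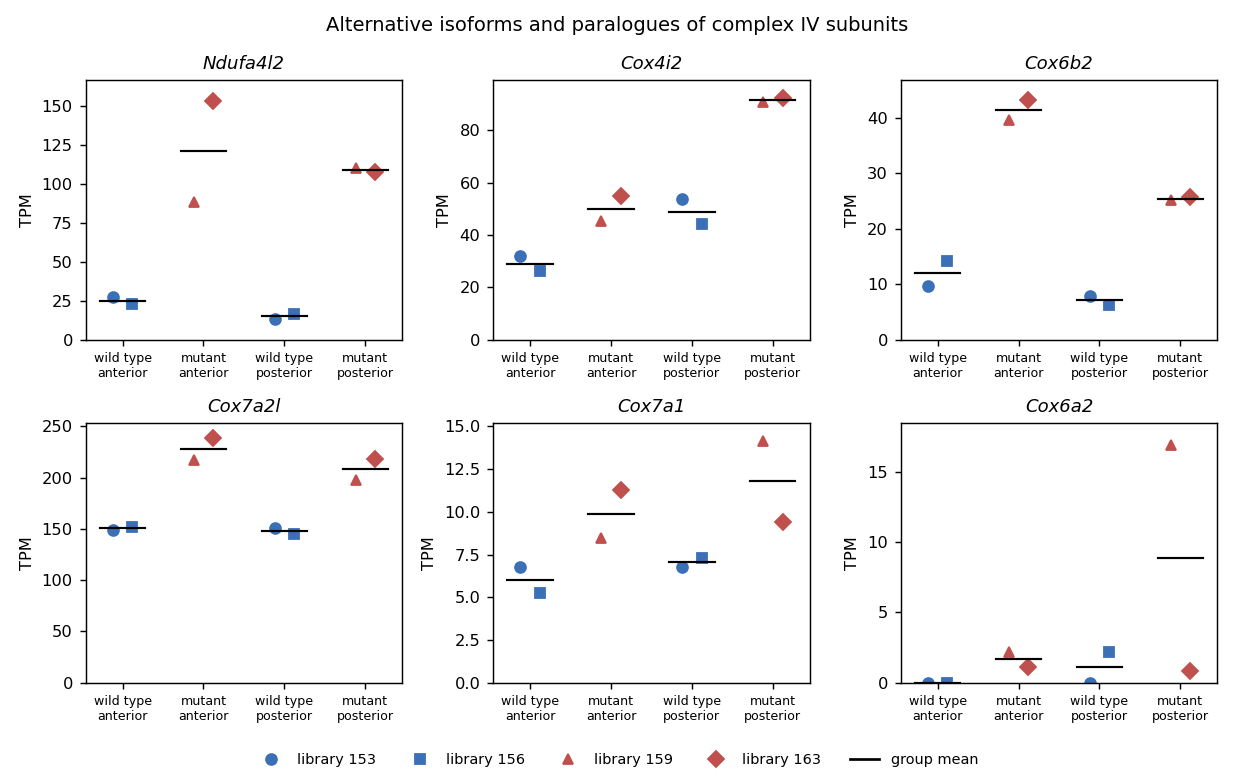
TPM of the 6 alternative isoforms and paralogues of complex IV subunits in each library (symbols, by library number), with group means as bars; axes start at 0 and differ between panels. Mutant libraries lie above the wild-type libraries of the same region for Ndufa4l2, Cox4i2, Cox6b2, Cox7a2l and Cox7a1, while Cox6a2 is highest, at 16.9 TPM, in mutant posterior library 159.

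Erythroid markers also separated the genotypes, without overlap. Within the mutant they went the other way from Ndufa4l2 in the anterior pieces: the erythroid sum was 43805 TPM in library 159 and 25428 TPM in library 163, while Ndufa4l2 was higher in library 163. The posterior erythroid sums were 43971 and 22117 TPM, with Ndufa4l2, Cox4i2 and Cox6b2 at nearly the same level in both libraries. The part of blood cells in the genotype differences was not tested.

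The isoforms can be told apart at the read level. No run of 50 coding bases was shared within any of these pairs. The stretches of 60 coding bases that follow are the most alike in each of the pairs whose alternative form had the largest called differences, with capitals at the bases that differ. They were read from GENCODE M21 transcripts, 5′ to 3′. Genes in mm10 are Ndufa4l2 at chr10:127514967-127517154 (plus strand), Ndufa4 at chr6:11900292-11907497 (minus), Cox6b2 at chr7:4751792-4753094 (minus), Cox6b1 at chr7:30616861-30626151 (minus), Cox4i2 at chr2:152754173-152765037 (plus) and Cox4i1 at chr8:120668222-120674207 (plus).
Ndufa4l2: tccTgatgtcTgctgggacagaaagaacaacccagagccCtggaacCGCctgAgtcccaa
Ndufa4: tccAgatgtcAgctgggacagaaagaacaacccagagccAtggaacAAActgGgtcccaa
Cox6b2: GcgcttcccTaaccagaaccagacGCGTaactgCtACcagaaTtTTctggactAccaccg
Cox6b1: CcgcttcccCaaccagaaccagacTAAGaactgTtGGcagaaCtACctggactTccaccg
Cox4i2: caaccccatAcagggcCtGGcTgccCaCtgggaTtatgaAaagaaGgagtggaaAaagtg
Cox4i1: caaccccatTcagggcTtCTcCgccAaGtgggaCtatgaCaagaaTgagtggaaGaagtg
These windows differ at 7 bases (Ndufa4l2 and Ndufa4), 13 bases (Cox6b2 and Cox6b1) and 11 bases (Cox4i2 and Cox4i1). Over the whole aligned coding sequence the pairs were 69.6%, 65.4% and 69.8% identical.

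Among the 36 nuclear subunits of complex I, 1 rose and 3 fell in the mutant anterior pieces (11.1% called beside 23.6% of all genes, median -0.07), and 5 rose and none fell in the posterior pieces (13.9% beside 11.5%, median 0.18). All called genes were accessory subunits, which surround the catalytic core and make up 29 of the 36 (13.8% and 17.2% of them called). Of the 7 nuclear core subunits none was called by genotype in either region. Among them, 1 in the anterior and 3 in the posterior pieces had an unadjusted limma p under 0.05. Posterior medians were 0.21 for core and 0.17 for accessory subunits. A count of 0 among 7 does not by itself set the core apart. Ndufa6, an accessory subunit, was at 142 and 156 TPM against 112 and 112 TPM in the anterior pieces and at 145 and 154 TPM against 112 and 105 TPM in the posterior ones. Its mutant and wild-type libraries did not overlap. The differences were 0.41 ± 0.09 (limma, adjusted p = 0.013) and 0.46 ± 0.09 (adjusted p = 0.015).

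The other 4 complex I subunits that rose in the posterior pieces were Ndufa12 (0.62 ± 0.13), Ndufv3 (0.54 ± 0.14), Ndufs4 (0.44 ± 0.11) and the X-linked Ndufb11 (0.41 ± 0.10). Ndufb11 was at 348 TPM in the mutant library with Xist and at 390 TPM in the one with Ddx3y, against 285 and 268 TPM in the wild type. In the anterior pieces the same 4 genes had positive differences of 0.18 to 0.36 that did not pass the test. Those that fell there were Ndufa5 (-0.43 ± 0.12), Ndufa8 (-0.36 ± 0.10) and Ndufb10 (-0.34 ± 0.09), from group means between 155 and 294 TPM in the wild type.

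The calls of complex I subunits were fragile. In the anterior pieces those of Ndufa8 and Ndufb10 were lost without any 1 of the 4 anterior libraries (limma adjusted p up to 0.17 and 0.23). Those of Ndufa5 and Ndufa6 were lost without mutant library 163 or either wild-type library (up to 0.19 and 0.10). All 5 posterior calls were lost without either wild-type library, and those of Ndufa12, Ndufs4, Ndufb11 and Ndufv3 also without mutant library 163, with adjusted p up to 0.18. Those of Ndufs4, Ndufb11 and Ndufv3 were also lost without either wild-type anterior library, that of Ndufv3 without mutant posterior library 159, and that of Ndufs4 without either mutant anterior library.

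Of the 8 assembly factors of complex I, 2 fell in the mutant anterior pieces and 1 in the posterior ones. Both shares were near those of all genes called in either direction, 23.6% and 11.5%. All genes called lower made up 10.2% and 2.93%. Among 8 genes, such counts do not by themselves set the assembly factors apart. Ndufaf4 was at 39.5 and 33.4 TPM against 67.6 and 63.7 TPM in the anterior pieces, and at 36.5 and 38.8 TPM against 63.9 and 47.9 TPM in the posterior ones. All mutant values were below all wild-type values. The differences were -0.84 ± 0.14 (limma, adjusted p = 0.0046) and -0.54 ± 0.14 (adjusted p = 0.044). The anterior call held without any 1 library (adjusted p up to 0.040), and the posterior one held only without wild-type posterior library 156 (adjusted p up to 0.22 in the other 7 fits). Ndufaf2 fell in the anterior pieces by 0.53 ± 0.13, from 41.8 and 45.4 to 29.4 and 30.4 TPM (adjusted p = 0.019), a call lost without any 1 anterior library (up to 0.13). Its level is uncertain, since 64.1% of its 50-base runs also occur in other genes, foremost the noncoding B230220B15Rik. Ndufaf3 was the 1 assembly factor with a positive anterior difference, 0.14 ± 0.13 (adjusted p = 0.47).

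Complexes II and III had no called member in any comparison, beside 1.01% to 23.6% of all genes. Among 4 and 8 genes, a count of 0 does not by itself set these complexes apart. Cyc1 of complex III, outside the naming rule, fell in the anterior pieces (-0.39 ± 0.11, limma adjusted p = 0.038). The 4 genes of complex II, the only complex with no mitochondrially encoded subunit, had genotype differences of -0.23 to 0.15 in the anterior and 0.01 to 0.20 in the posterior pieces. Sdhd, a membrane anchor, was the highest of them at 562 to 672 TPM. All 8 complex III genes had negative anterior differences, from -0.03 (Uqcrc2) to -0.52 ± 0.18 (Uqcrq, limma adjusted p = 0.063), and 3 of them reached an unadjusted p under 0.05. The posterior differences lay between -0.08 and 0.16, and 6 of the 8 were positive.

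Of 11 nuclear complex IV subunits that are not alternative forms, Cox5a was called in the anterior comparison (9.09%, beside 23.6% of all genes). It was at 113 and 133 TPM in the mutant anterior pieces and at 166 and 179 TPM in the wild-type ones, a difference of -0.49 ± 0.13 (limma, adjusted p = 0.030). The groups did not overlap, but the call was lost without any 1 anterior library or either wild-type posterior library (adjusted p up to 0.16) and under quantile normalization. The most abundant subunits of this complex, Cox8a (752 to 1317 TPM), Cox6b1 and Cox6a1 (730 to 1066 TPM), were not called in any comparison.

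Complex V held the most abundant nuclear members. Atp5b and Atp5a1, the beta and alpha subunits of the catalytic F1 head, averaged 1653 and 1340 TPM and were not called by genotype. Atp5c1, the central stalk subunit, was at 558 and 621 TPM against 437 and 425 TPM in the posterior pieces, a difference of 0.45 ± 0.09 (limma, adjusted p = 0.017), and at 546 and 533 TPM against 446 and 450 TPM in the anterior ones, 0.27 ± 0.09 (adjusted p = 0.063). The posterior call was lost without mutant library 163 or either wild-type library (adjusted p up to 0.090).

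The 3 genes of the c-ring, the rotor through which protons pass, encode the same mature subunit with different targeting sequences. Atp5g1 was at 7.17 and 8.05 TPM in the mutant anterior pieces and at 12.4 and 12.3 TPM in the wild-type ones, with no overlap, a difference of -0.64 ± 0.12 (limma, adjusted p = 0.0062). That call was lost without wild-type library 153 (adjusted p = 0.054). In the posterior pieces it was at 9.37 and 10.0 TPM against 10.9 and 10.2 TPM (-0.11 ± 0.12, adjusted p = 0.59). Atp5g3 was the main source of c-ring transcripts, at 627 to 792 TPM, with an anterior difference of -0.27 ± 0.10 (adjusted p = 0.078). For Atp5g1, 11.1% of 50-base runs were shared with other genes, and for Atp5g2 38.4%, so both low levels are uncertain. Among the other called members, Ndufa12 shared 17.7%, Ndufb11 17.5% and Cox7a2l 13.8% of their runs.

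Of the mitochondrial genes, mt-Nd1, a core membrane subunit of complex I, fell in the mutant anterior pieces. It was at 4018 and 2516 TPM against 9967 and 6098 TPM, a difference of -1.29 ± 0.32 (limma, adjusted p = 0.020). The groups did not overlap. The call was lost without mutant library 163 (-0.96, adjusted p = 0.14) or wild-type library 153 (-0.94, adjusted p = 0.12). In the posterior pieces it was at 4777 and 2869 TPM against 7638 and 6343 TPM, again without overlap, a difference of -0.91 ± 0.32 (adjusted p = 0.10).

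The others did not pass in either region. mt-Nd2 was at 1990 and 1499 TPM in the mutant anterior pieces against 4394 and 2711 TPM in the wild-type ones, without overlap (limma, adjusted p = 0.068). The other anterior differences were -0.99 ± 0.43 for mt-Cytb, which encodes cytochrome b of complex III, -0.94 ± 0.39 for mt-Nd4, -0.91 ± 0.42 for mt-Nd5, -0.89 ± 0.44 for mt-Nd6 and -0.48 ± 0.45 for mt-Co1, the catalytic core of complex IV. The posterior differences ran from -0.64 for mt-Nd2 to -0.04 for mt-Co1. mt-Nd3, on few reads, gave 0.06 and 0.10. For all of these genes except mt-Nd3, where both orders were reversed, wild-type anterior library 153 was above its partner 156, and mutant posterior library 159 above its partner 163. mt-Cytb, for example, was at 6808 and 3246 TPM in the former pair and at 5399 and 2309 TPM in the latter. Its mutant anterior values, 2924 and 1902 TPM, were both lower than the 5019 and 5134 TPM of the wild-type posterior pair.

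A single library moved the mitochondrial median from the anterior -0.93 to -0.38 (without wild-type library 153) or -1.45 (without wild-type library 156). It moved the posterior -0.38 to 0.11 (without mutant library 163) or -0.98 (without mutant library 159). Wild-type anterior library 153 also stood apart in 10 of 10 visceral endoderm markers, with a sum of 157 TPM beside 24.4 TPM in library 156, and mutant posterior library 159 in the heart markers given above. The part of these tissues in the mitochondrial values was not tested. The 2 ribosomal RNAs of the mitochondrial genome, which are not members, summed to 2247 and 1137 TPM in the mutant anterior, 2278 and 2157 TPM in the wild-type anterior, 2342 and 847 TPM in the mutant posterior and 2633 and 3036 TPM in the wild-type posterior libraries.

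**Figure D5:**
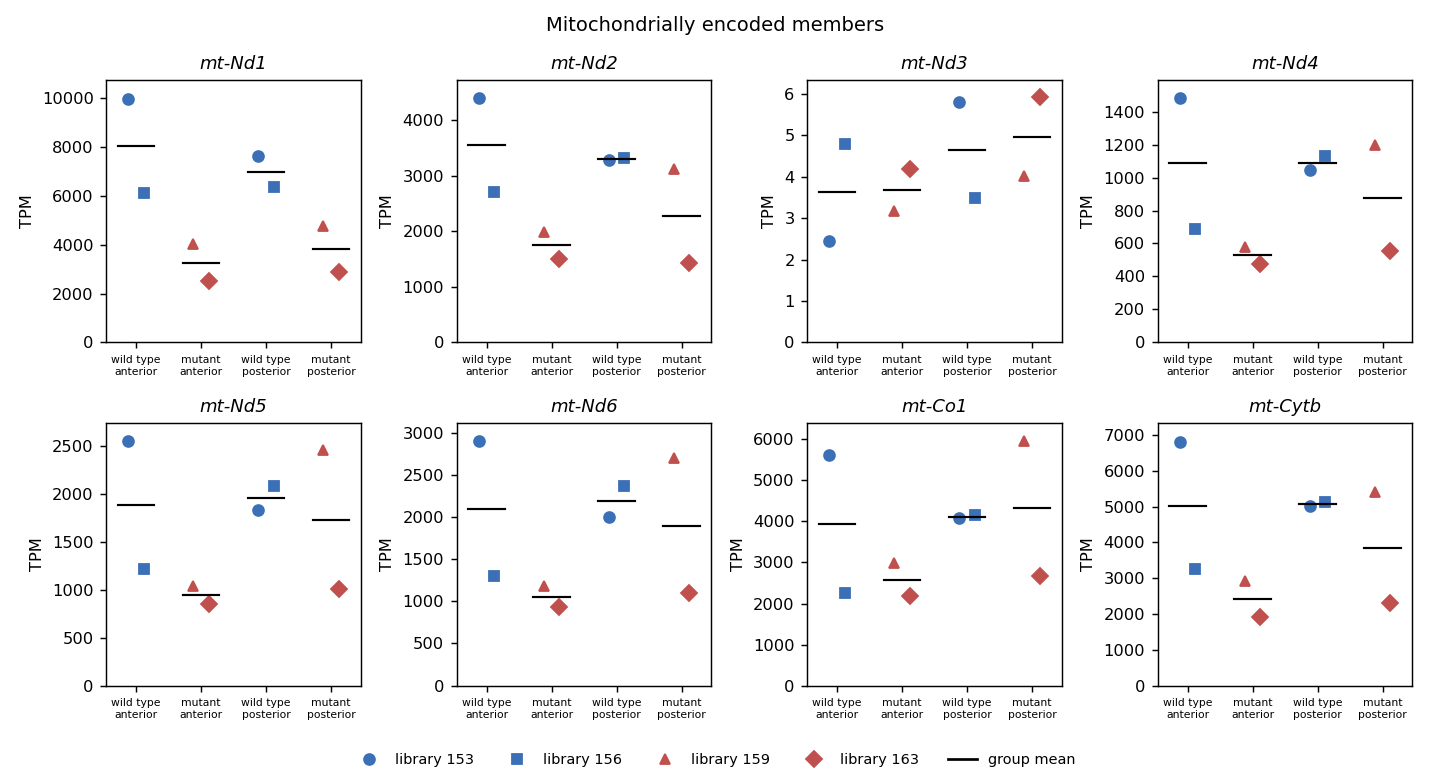
TPM of the 8 mitochondrially encoded members in each library (symbols, by library number), with group means as bars; axes start at 0 and differ between panels. mt-Nd1 shows both mutant libraries below both wild-type libraries in each region, and most other panels show the gap between wild-type anterior libraries 153 and 156 and between mutant posterior libraries 159 and 163.

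Whether the genotype effect differed between the regions was tested as the anterior minus the posterior difference. No member passed (limma, adjusted), beside 1.01% of all genes, and 9 members had an unadjusted p under 0.05. Of the 89 nuclear members, 83 had a more negative difference in the anterior than in the posterior pieces, with a median of -0.25 (-0.13 under quantile normalization) beside -0.04 over all genes. The members share the same libraries and scaling, so they are not independent. The most negative values of nuclear members were those of Ndufa4l2 (-0.61 ± 0.32), Atp5g1 (-0.53 ± 0.17) and Atp5g2 (-0.51 ± 0.26), and among the mitochondrial genes that of mt-Nd5 (-0.59 ± 0.59).

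Posterior pieces were compared with anterior ones within each genotype. In the wild type 2 members were called, beside 14.5% of all genes: Cox4i2 was higher in the posterior pieces (0.74 ± 0.14, limma adjusted p = 0.0093) and Cox6b2 lower (-0.66 ± 0.17, adjusted p = 0.034); under median-of-ratios scaling the split was 1 higher and 0 lower. In the mutant 4 were called, beside 16.1% of all genes: Cox4i2 (0.86 ± 0.14, adjusted p = 0.0038), Ndufs8 (0.47 ± 0.13) and Ndufb10 (0.35 ± 0.09) were higher and Cox6b2 was lower (-0.68 ± 0.17, adjusted p = 0.027); median-of-ratios scaling gave 6 higher and 1 lower. The nuclear median was -0.09 in the wild type (0.03 under quantile normalization) and 0.15 in the mutant, beside -0.10 and -0.04 over all genes. The mitochondrial median was 0.13 in the wild type and 0.61 in the mutant, with no gene called.

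The isoforms thus differed in their order across the groups. Cox4i2 was highest in the mutant posterior pieces (91.5 ± 0.98 TPM, SD, n = 2), then close together in the mutant anterior (50.1 ± 7.0) and wild-type posterior (48.9 ± 6.8) pieces, whose libraries overlapped, and lowest in the wild-type anterior pieces (28.9 ± 4.0). Cox6b2 was highest in the mutant anterior pieces (41.3 ± 2.6), followed by the mutant posterior (25.4 ± 0.32), wild-type anterior (11.9 ± 3.1) and wild-type posterior (7.09 ± 1.1) pieces, with no overlap between neighbours. Ndufa4l2 had overlapping libraries in the mutant (121 ± 46 and 109 ± 2.2) and, for wild-type pieces, 25.1 ± 3.0 in the anterior and 14.9 ± 2.0 in the posterior pieces, a region difference of -0.71 ± 0.22 (limma, adjusted p = 0.066).

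Of these region calls, Cox4i2 in the mutant held without any 1 library (adjusted p up to 0.035). In the wild type it was lost without anterior library 156 or posterior library 153 (up to 0.085). Cox6b2 was lost without any 1 of the mutant libraries in the mutant comparison (up to 0.14), and in the wild-type comparison without wild-type anterior library 156, either wild-type posterior library or either mutant anterior library (up to 0.24). With the library number as a replicate block, both Cox6b2 region calls were lost (adjusted p = 0.064 in the wild type and 0.056 in the mutant). Ndufs8 and Ndufb10 were each lost in 7 of 8 such fits, holding only without mutant posterior library 159 (up to 0.20 and 0.18). Heart and visceral endoderm markers were higher in most posterior pieces; the visceral endoderm sum was 239 and 1145 TPM in the mutant and 2575 and 2150 TPM in the wild-type posterior libraries, against 18.2 to 157 TPM in the anterior ones. Their part in the region differences was not tested.

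Other genes of the pathway were taken from 6 lists of known function. The shares of their genes called are to be read beside 23.6% of all genes in the anterior and 11.5% in the posterior comparison. Among 11 tested electron and nucleotide carriers and partners, 2 rose and 5 fell in the mutant anterior pieces (63.6% called), and 2 rose and 1 fell in the posterior ones (27.3%). Etfa, the electron transfer flavoprotein subunit that brings electrons from fatty acid oxidation, rose in both, from 61.1 and 67.4 to 155 and 158 TPM in the anterior pieces (1.27, limma adjusted p = 0.00020) and from 69.7 and 72.8 to 157 and 187 TPM in the posterior ones (1.25, adjusted p = 0.00044). Gpd2, the glycerophosphate dehydrogenase of the inner membrane, fell in both (-0.55 and -0.74). The ADP/ATP carriers Slc25a4 (-0.49) and Slc25a5 (-0.63) and the cytochrome c gene Cycs (-0.73, from 5.73 and 5.49 to 3.55 and 2.50 TPM) fell in the anterior pieces.

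Of 37 other assembly factors and chaperones, 1 rose and 9 fell in the anterior pieces (27.0%). In the posterior ones 1 rose and 1 fell (5.41%, below the share of all genes). The medians were -0.09 and 0.06. The anterior share was near that of all genes called in either direction, but most calls were lower, where all genes gave 10.2%. Cox14, a complex IV assembly factor, rose in both regions (0.66 and 0.70). Ecsit of complex I assembly (-0.71), Cox18 (-0.71) and the heme A enzyme Cox10 (-0.62) fell in the anterior pieces. Of 20 genes that maintain, transcribe or process the mitochondrial genome, none rose, 4 fell in the anterior pieces (20.0%) and 3 in the posterior ones (15.0%). Both shares were near those of all genes called in either direction, but all genes called lower made up 10.2% and 2.93%. The list was not tested as a set. Elac2, which trims mitochondrial tRNAs, fell in both (-0.89, limma adjusted p = 0.00052, and -0.53, adjusted p = 0.011), and the mitochondrial RNA polymerase Polrmt fell in the anterior pieces (-0.53). Tfam, which packages mitochondrial DNA, did not pass in either region (-0.15 in the anterior pieces).

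Of 12 nuclear regulators of such genes, 2 fell in the anterior (16.7%) and 1 in the posterior pieces (8.33%). All genes called lower made up 10.2% and 2.93%. Among 12 genes, such counts do not by themselves set the regulators apart. Those that fell were Pprc1, a coactivator related to Ppargc1a, in both (-0.78 and -0.41), and Myc in the anterior ones (-0.96). Of 20 genes of the tricarboxylic acid cycle and pyruvate entry, 2 rose and 6 fell in the anterior pieces (40.0%) and 2 rose in the posterior ones (10.0%). The pair that rose were the pyruvate dehydrogenase kinases Pdk1 (1.02 and 0.95) and Pdk2 (0.93 and 0.64), which restrain entry of pyruvate into the cycle; citrate synthase Cs (-0.53) and Ogdh (-0.60) were among those that fell. Of 15 genes that link hypoxia to mitochondria, 5 rose and 2 fell in the anterior pieces (46.7%) and 3 rose in the posterior ones (20.0%); Pdk1 is in this list too. Hif1a, the oxygen-regulated factor subunit, and Chchd4, an import factor of the intermembrane space, were those that fell (-0.39, limma adjusted p = 0.021, and -0.65, adjusted p = 0.012). Bnip3, a mitophagy receptor, rose from 17.8 and 27.4 to 82.8 and 100 TPM (1.99, adjusted p = 0.00029) and from 32.4 and 29.7 to 83.9 and 91.3 TPM (1.47, adjusted p = 0.0021), while Higd1a, a hypoxia-induced complex IV partner, did not pass in the anterior pieces (0.11).

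The promoters of the nuclear members were searched for the recognition sequence of NRF1, a regulator known to bind many genes of the respiratory chain. A RefSeq promoter (build GRCm38.p6) could be matched for 73 of 89 nuclear members, and the 250 bases before the start site were read on both strands. The exact NRF1 sequence, the capitals in the stretches below, occurred in 5 of 73 (6.85%), beside 1.06% of 17491 promoters of protein-coding genes. With any base in place of its single T, a pattern that includes the exact one, it occurred in 13 (17.8%, beside 5.30%). The ETS sequence CCGGAAG, bound by GABP, was in 16.4% of member promoters beside 9.12% of all, and the YY1 sequence AAGATGGC in 0 of 73 beside 1.51%. The core ACGTG of the hypoxia response element was in 19.2% beside 17.6%, and GCGTG in 42.5% beside 33.7%. Ndufa4l2 and Cox4i2 had no promoter in the table.

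The 5 promoters with the exact NRF1 sequence are shown because that match was in a larger share of members than of all promoters. They belong to complexes V (Atp5g2, Atp5k), IV (Cox6a1) and I (Ndufa11) and to an assembly factor; each stretch is 60 bases on the gene's strand, 5′ to 3′, with the match in capitals. The positions are chr15:102671055-102671114 (Atp5g2, minus strand), chr5:108434415-108434474 (Atp5k, minus), chr5:115349086-115349145 (Cox6a1, minus), chr17:56717677-56717736 (Ndufa11, plus) and chr4:24897945-24898004 (Ndufaf4, plus).
Atp5g2: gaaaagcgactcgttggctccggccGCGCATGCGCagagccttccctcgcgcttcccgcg
Atp5k: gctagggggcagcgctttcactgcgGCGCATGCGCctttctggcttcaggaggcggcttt
Cox6a1: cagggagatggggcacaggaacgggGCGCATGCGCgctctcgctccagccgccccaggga
Ndufa11: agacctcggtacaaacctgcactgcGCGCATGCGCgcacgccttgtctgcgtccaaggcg
Ndufaf4: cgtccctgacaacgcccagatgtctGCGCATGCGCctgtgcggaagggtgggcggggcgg
The sequence starts 42, 50, 162, 60 and 113 bases before the start site in that order. The anterior genotype differences of these 5 genes were -0.28, -0.19, -0.11, -0.20 and -0.84, of which that of Ndufaf4 passed the test. Their posterior differences had both signs, at 0.22, 0.09, 0.32, -0.04 and -0.54, and again that of Ndufaf4 passed. NRF1 itself, the gene Nrf1, was at 31.0 to 39.1 TPM in all libraries and was not called in the anterior comparison (-0.16).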

How the data were processed

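The authors deposited 1 table of TPM values for 8 poly-A, non-stranded libraries; per the submitters' processing notes, the tools named are CASAVA 1.8.2 and STAR and the build is mm10. Annotation and read counter: not given in the sources used here. Identifiers were named with GENCODE M21 (55240 of 55421 matched). TPM times exon length gave whole reads within 0.01 for 98.8% to 98.9% of values. Genes at 1 TPM or more in at least 2 libraries (16699) were fitted as log2(TPM + 1) with limma 3.58.1 in R 4.3.3: 4 group means, 4 residual and 4.68 prior degrees of freedom, a trend of the spread, two-sided tests, Benjamini-Hochberg adjustment within a comparison, threshold 0.05. The scale understates changes of low genes. Members and lists were chosen with earlier results of these data known. Named genes were the mitochondrial ones, up to 10 called members each way per comparison, the isoform pairs, and members set beside them for their complex. Pathway genes named were chosen after their values were seen. On simulated data for the anterior comparison (16699 genes, 200 changed), the fit recovered 45.4% of 1.5-fold changes, 81.8% of 2-fold ones and 97.9% of 4-fold ones, with 5.44% false calls. Tables were made with Python 3.11.15. Alternatives were pseudocounts of 0.1 and 0.5, no filter or 5 TPM, other scalings, library weights, no trend, only the compared groups, a replicate block and left-out libraries.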

Additional observations from a re-analysis of the deposited data

How the results depend on the processing

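In the anterior comparison the number of members called (13) was 7 with no filter, 21 with library weights and 2 without both libraries numbered 153; the nuclear median (-0.09) was 0.02 under quantile normalization. In the posterior comparison the count (11) was 5 with no filter, 17 under quantile normalization, 6 with library weights, 7 with no trend, 4 with only the compared groups and 2 without both 153 libraries; without both 159 libraries the nuclear median was 0.25 and the mitochondrial -0.98. For the difference of effects the nuclear median (-0.25) was -0.13 under quantile normalization and -0.33 without both 153 libraries. In the wild-type region comparison the count (2) was 1 with no filter, median-of-ratios scaling, no trend or both 153 libraries left out, and 5 with library weights; its nuclear median (-0.09) was 0.03 under quantile normalization and -0.18 without both 153 libraries. In the mutant region comparison the count (4) was 1 with no filter, library weights or both 159 libraries left out, 7 under median-of-ratios scaling, and 2 with no trend, only the compared groups or both 153 libraries left out. The alternatives that leave out 2 libraries were chosen after seeing the data. The cause of these changes was not tested.

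Leaving out each library in turn gave 5 to 20 (anterior), 3 to 15 (posterior), 0 to 0 (difference), 0 to 3 (wild-type region) and 1 to 6 (mutant region) members called. Nuclear medians ran from -0.11 to -0.06, 0.07 to 0.25, -0.33 to -0.12, -0.14 to -0.03 and 0.03 to 0.26 in that order, and mitochondrial medians from -1.45 to -0.38, -0.98 to 0.11, -1.05 to 0.07, -0.42 to 0.65 and 0.07 to 1.19. A lone library was then assumed to vary like the other groups.

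The labels do not say that a shared number marks 1 embryo. In the mutant the sex genes were alike in same-numbered libraries, and deviations of same-numbered libraries correlated at 0.136 (mutant) and 0.0216 (wild type). This did not meet the rule for pairs, a correlation over 0.1 in every pair, so the reported tests have no block. With the number as a replicate block, 1 (wild type) and 3 (mutant) members were called between regions and 0 for the difference. Of 606 values of the 30 called gene results under alternatives, 430 kept the call, 176 lost it and 0 reversed; Ndufa4l2 and Cox6b2 kept it under every alternative run in both genotype comparisons. Another scaling moved the median of all genes by at most 0.079.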

Other observations

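Some subunits and regulators of the same complexes carry symbols outside the naming rule. Cyc1, the cytochrome c1 subunit of complex III, was at 315 and 346 TPM in the mutant anterior pieces against 426 and 441 TPM in the wild-type ones, with no overlap (limma, adjusted p = 0.038), and at 346 and 424 TPM against 376 and 364 TPM in the posterior pieces. Atpif1, the inhibitor of the ATP synthase, was at 235 and 245 TPM against 195 and 188 TPM, and at 236 and 310 TPM against 223 and 195 TPM. Ndufb1-ps, the symbol under which the annotation lists the complex I subunit Ndufb1, was at 115 to 162 TPM over the 8 libraries, and Usmg5, a small ATP synthase subunit, at 20.5 to 28.2 TPM.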
